A study of Mus musculus with 6 samples.

Results

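The transcripts described here are 9 lysosomal proteases and 1 of their inhibitors in mouse macrophages. They were the cathepsin genes Ctsa, Ctsb, Ctsc, Ctsd, Ctsh, Ctsl, Ctss and Ctsz, the legumain gene Lgmn, and Cst3, which encodes cystatin C. They were chosen by gene symbol, and all 10 were among the 13254 genes of the deposited table. RNA sequencing was done on bone marrow derived macrophages, cells that grow out of marrow precursors in culture. Of the 6 samples, 3 came from mice with a deletion of the microRNA cluster miR-130b/301b (KO) and 3 from wild-type mice (WT). The labels state no treatment besides genotype. The sources used here do not give the strain, age or sex of the mice, the extent of the deletion, or whether each sample came from its own animal. The p-values therefore reflect the spread among 6 samples that may be technical replicates.

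Cathepsins are made as inactive precursors, sorted to acidic compartments and activated there by cleavage, and they break down the proteins that a macrophage takes up. Most are papain-like cysteine proteases, while cathepsin D is an aspartic protease and cathepsin A a serine carboxypeptidase. Legumain is a cysteine protease of another family that cuts after asparagine and helps to process several cathepsins. Cystatin C is a small secreted protein that blocks papain-like enzymes by entering their active site and blocks legumain through a separate surface, but it does not inhibit cathepsins D and A.

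The unit of the deposited values was CPM, read counts relative to the total of their library. The columns summed to between 989223 and 1018258 CPM, which shows a further scaling between libraries, and depth in reads was unknown. The host transcript of the deleted microRNAs, 2610318N02Rik, was listed at 0 in all 3 KO samples, whereas the WT samples had 1.63, 2.43 and 2.07 CPM. All 8 macrophage markers examined were listed, and their summed level was 19179 to 19863 CPM in KO and 17525 to 18103 CPM in WT, without overlap. Of the 7 macrophage markers with enough signal for limma's test, 0 passed it and 1 had an unadjusted p under 0.05. Lyz2, the lysozyme gene, made up most of that sum with 12163 CPM in KO and 10513 CPM in WT (limma, Benjamini-Hochberg (BH) adjusted p = 0.0855). Without Lyz2 the macrophage markers summed to 7387, 7258 and 7542 CPM in KO and 7419, 6996 and 7374 CPM in WT, with overlap. Of those 7 tested genes, 4 had a positive log2 difference and 3 a negative one. Csf1r, the receptor of a macrophage growth factor, averaged 2368 CPM in KO and 2187 CPM in WT (limma, BH-adjusted p = 0.432).

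The sequence that the deletion removes is shown because it sets which letters were searched for in the cathepsin transcripts. The mature miR-130b-3p shares its seed, bases 2 to 8, in capitals here, with miR-130a-3p and miR-301a-3p, which are encoded on other chromosomes. Sequences and positions are those of RefSeq on GRCm38.p6, where miR-130b-3p lies at chr16:17124071-17124092 on the minus strand. The mature miR-301b-3p is named only.
miR-130b-3p: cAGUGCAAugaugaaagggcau
miR-130a-3p: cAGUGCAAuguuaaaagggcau
miR-301a-3p: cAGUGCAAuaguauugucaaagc

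Ctsc was the only member whose longest annotated 3′ untranslated region held the complement of that seed, TTGCACT. The search used GENCODE M21 and read the transcript strand only. Ctsc, on chromosome 7, had 2 matches, at bases 1217 to 1223 and 1338 to 1344 of a region of 2737 bases. The other 9 members had 0. The shorter complement of bases 2 to 7 alone occurred 2 times each in the longest regions of Ctsc and Ctsl and 1 time in that of Ctsz. It was absent from those of the remaining members, and its share over all tested genes is not given here. Of the 10685 tested genes with such a region, 11.9% held at least 1 match, and the regions were 1205 bases long at the median over those genes and 573 over the members. In the transcript that the annotation marks as principal, the Ctsc region was 986 bases long and held 0 matches. A match describes letters and not a working site. The match is in capitals below.
Ctsc, first match: agccagagttcTTGCACTcagccgataaca
Ctsc, second match: attttgtttaaTTGCACTattgttcagcct

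Several members also shared a promoter word. CACGTG is the core of the element bound by TFEB and its relatives, the transcription factors known for driving lysosomal genes, and it reads the same on both strands. The RefSeq windows run from 250 bases before to 50 bases after a gene's start, and 8 of the 10 members had at least 1. The word stood in the windows of Ctsa, Ctsd, Ctsl and Lgmn, 4 of those 8 genes, and in 12.2% of the 8765 tested genes with a window. Over all 32851 windows the share was 7.15%. Ctsa and Ctsd held 2 copies each. The copy nearest to the start is shown for each gene, with the word in capitals, on the gene's own strand and on GRCm38.p6. It was at bases -98 to -93 from the start in Ctsd (chr7:142387908-142387937), at 6 to 11 in Ctsa (chr2:164833766-164833795), at -236 to -231 in Ctsl (chr13:64370739-64370768) and at -49 to -44 in Lgmn (chr12:102439124-102439153). No binding was measured in this study's files.
Ctsd: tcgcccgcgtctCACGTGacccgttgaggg
Ctsa: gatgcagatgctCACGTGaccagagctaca
Ctsl: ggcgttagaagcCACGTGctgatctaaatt
Lgmn: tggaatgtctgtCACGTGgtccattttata

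Together the 10 genes took 3.82% to 3.87% of the column total in KO and 3.79% to 4.04% in WT, and Ctsb had the highest mean CPM of all tested genes. Levels of different genes were compared as CPM per kilobase, dividing by the longest principal transcript in GENCODE M21. On that scale Ctsd led with 5825 to 5942 in KO and 5593 to 6454 in WT. Ctsb followed with 3527 to 3591 in KO and 3475 to 3717 in WT, and Ctss with 2063 to 2203 in KO and 2182 to 2293 in WT. The ranges of these 3 genes did not overlap with each other in either genotype. The inhibitor Cst3 came next, at 914 to 975 CPM per kilobase in KO and 864 to 893 in WT.

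Below Cst3 on the scale of CPM per kilobase stood Lgmn (523 to 540 in KO, 549 to 568 in WT) and Ctsz (500 to 518 in KO, 520 to 575 in WT). With the longest principal transcripts, the ranges of Lgmn and Ctsz overlapped in WT but not in KO. With its shorter principal transcript, of 1835 bases, Lgmn averaged 579 in KO and 607 in WT. That WT mean lay above all WT values of Ctsz. Ctsh (93.9 to 98.4 in KO, 94.8 to 104 in WT) and Ctsc (77.9 to 79.6 in KO, 67.1 to 74.3 in WT) were the lowest. Ctsa averaged 301 in KO and 314 in WT. The place of Ctsl depended on the transcript chosen. With a principal transcript of 6168 bases it averaged 284 CPM per kilobase in KO and 358 in WT, near Ctsa. With the other principal transcript, of 1971 bases, it averaged 888 in KO, below Cst3 at 940. In WT it then averaged 1120, above Cst3 at 877.

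The question was whether loss of the cluster went with a change of these proteases or of their inhibitor. None of the 10 members passed the test across all genes, while Ctsl stood lower and Ctsc and Cst3 stood higher in every KO sample than in any WT sample. The test was limma on log2(CPM + 1) over 11556 tested genes, with a threshold of 0.05 on the BH-adjusted p. By limma 0 of 10 members passed it, against 1.27% of all tested genes, and 4 of 10 had an unadjusted p under 0.05 (Ctsl, Ctsc, Cst3 and Ctsz), against 12.5% of all tested genes. The KO and WT values did not overlap for 5 of the 10 members, against 17.7% of all tested genes. Lower in KO without overlap were Ctsl, Ctsz and Lgmn (9.1% of all genes). Higher in KO without overlap were Ctsc and Cst3 (8.55% of all genes). The log2 difference was negative for 8 of the 9 proteases and positive for Cst3, and 50.1% of all genes had a negative difference. The members' median log2 difference was -0.06, and that of all tested genes was -0.0003.

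**Figure D1:**
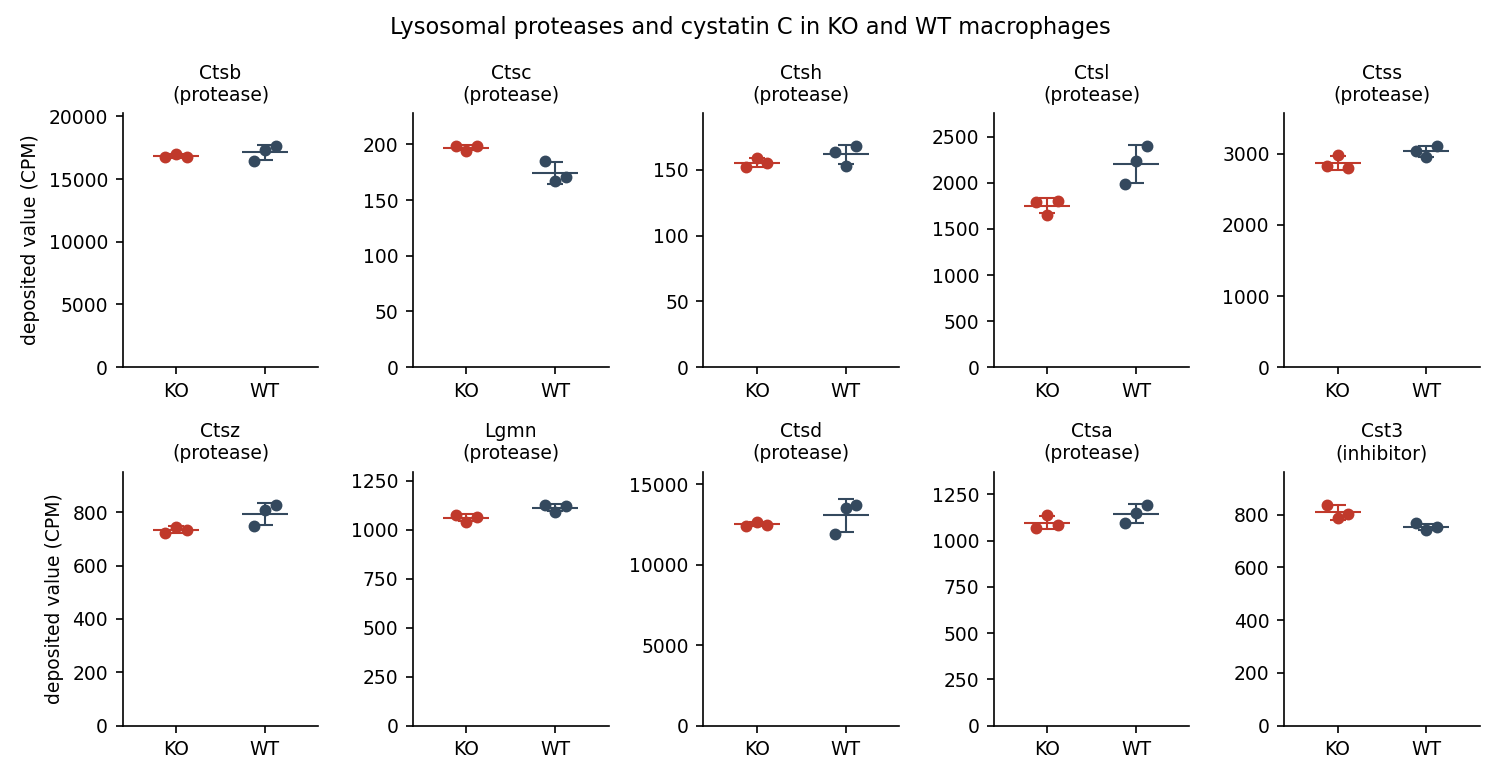
CPM of each member in the 3 KO and the 3 WT samples, on an axis that starts at 0; points are samples in the order of replicates 1 to 3, the horizontal bar is the mean and the error bar the SD. Ctsl shows the widest gap between the groups, with KO samples at 1657 to 1805 CPM and WT samples at 1987 to 2399 CPM.

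Among the papain-like endopeptidases, Ctsl differed the most. Cathepsin L is a strong endopeptidase of late endosomes and lysosomes. Values are given in the order of replicates 1, 2 and 3 from here on. In KO, Ctsl had 1791, 1657 and 1805 CPM, and in WT it had 1987, 2235 and 2399 CPM. All KO samples lay below all WT samples, and WT replicate 1 was the WT sample nearest to them. The means were 1751 ± 81.9 CPM in KO and 2207 ± 207 CPM in WT (SD, n = 3 each), a log2 difference of -0.33 (SE 0.0677, 95% interval -0.48 to -0.18; limma, BH-adjusted p = 0.0665). Without WT replicate 1 the log2 difference was -0.40 and passed the test (limma, BH-adjusted p = 0.00929). Leaving out that sample also raised the number of all genes past the test from 147 to 243. Without any other single sample the adjusted p of Ctsl lay between 0.126 and 0.24 (limma, BH).

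Ctss, whose product works outside the acid lysosome as well and trims the invariant chain of MHC class II, overlapped between the groups. It was at 2829, 2985 and 2795 CPM in KO and at 3034, 2957 and 3107 CPM in WT. KO replicate 2 lay above WT replicate 2. Between the means stood a log2 difference of -0.08 (95% interval -0.17 to 0.01; limma, BH-adjusted p = 0.464).

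Ctsb, whose product acts both inside chains and at their carboxyl end, stood at 16726, 17031 and 16756 CPM in KO and at 16482, 17313 and 17630 CPM in WT. The KO samples lay between the lowest and the middle WT sample. Ctsb had a log2 difference of -0.03 (95% interval -0.13 to 0.08; limma, BH-adjusted p = 0.876). That difference was -0.05 without WT replicate 1 and -0.0047 without WT replicate 3 (limma, BH-adjusted p = 0.549 and 0.989). The interval was narrow enough to leave out a log2 change as large as the one measured for Ctsl.

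The exopeptidases of the same family stood on both sides of WT. Ctsc encodes dipeptidyl peptidase I, which activates the serine proteases stored in granules of neutrophils, mast cells and lymphocytes. Ctsc was at 198, 194 and 198 CPM in KO and at 185, 167 and 171 CPM in WT. All KO samples lay above all WT samples, and WT replicate 1 was again the nearest. The means were 197 ± 2.32 CPM in KO and 174 ± 9.53 CPM in WT (SD, n = 3 each), a log2 difference of 0.18 (SE 0.0427, 95% interval 0.08 to 0.27; limma, BH-adjusted p = 0.12). Without WT replicate 1 the log2 difference of Ctsc was 0.22 and passed the test (limma, BH-adjusted p = 0.0227). Without any other single sample its adjusted p lay between 0.189 and 0.383 (limma, BH). Markers of neutrophil precursors summed to 176 to 225 CPM in KO and 198 to 218 CPM in WT, and of 8 tested only Mpo, the myeloperoxidase gene, passed the test (3.99 ± 0.482 CPM in KO and 6.88 ± 0.594 CPM in WT; limma, BH-adjusted p = 0.0219). Their part in the level of Ctsc was not tested.

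Ctsz encodes cathepsin X, a carboxypeptidase. It was at 721, 746 and 735 CPM in KO and at 749, 807 and 828 CPM in WT. The groups were set apart by a small gap between KO replicate 2 and WT replicate 1. Ctsz had a log2 difference of -0.11 (SE 0.0421, 95% interval -0.21 to -0.02; limma, BH-adjusted p = 0.308), and without WT replicate 1 it was -0.16 (adjusted p = 0.06).

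Ctsh encodes an aminopeptidase that also works on surfactant protein in the lung. It stood at 152, 159 and 155 CPM in KO and at 164, 153 and 168 CPM in WT, with overlap between the groups. Ctsh had a log2 difference of -0.06 (95% interval -0.15 to 0.04; limma, BH-adjusted p = 0.643). It was -0.09 without WT replicate 2 and -0.03 without WT replicate 3 (limma, BH-adjusted p = 0.559 and 0.906).

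**Figure D2:**
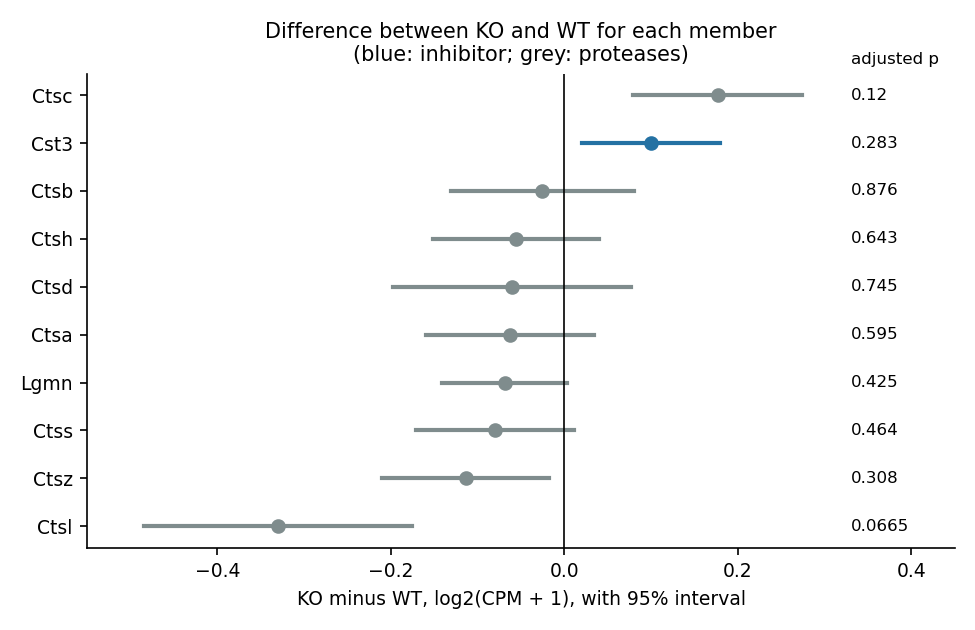
Difference between KO and WT of each member on the log2(CPM + 1) scale (horizontal axis, KO minus WT), with its 95% interval from limma and its BH-adjusted p at the right; the inhibitor is blue and the proteases are grey. Of the 10 intervals, those of Ctsl, Ctsz, Ctsc and Cst3 do not include 0, and no adjusted p is under 0.05.

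The proteases outside the papain-like family differed little. Lgmn was at 1075, 1042 and 1068 CPM in KO and at 1129, 1092 and 1120 CPM in WT. The groups did not overlap, and both had a small spread (SD 17.7 CPM in KO and 19.2 CPM in WT, n = 3 each). The log2 difference of Lgmn was -0.07 (SE 0.0316, 95% interval -0.14 to 0.00; limma, BH-adjusted p = 0.425).

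Ctsd, which encodes the main aspartic protease of lysosomes, was at 12390, 12639 and 12465 CPM in KO and at 11897, 13547 and 13727 CPM in WT. The KO samples fell between WT replicate 1 and the other WT samples. Ctsd had a log2 difference of -0.06 (95% interval -0.20 to 0.08; limma, BH-adjusted p = 0.745), and without WT replicate 1 it was -0.13 (adjusted p = 0.133). It was -0.03 without WT replicate 2 and -0.02 without WT replicate 3 (limma, BH-adjusted p = 0.932 and 0.949).

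Ctsa encodes cathepsin A, which also protects the sialidase and the beta-galactosidase of the lysosome in a shared complex. It was at 1069, 1137 and 1083 CPM in KO and at 1094, 1148 and 1195 CPM in WT, with overlap. Ctsa had a log2 difference of -0.06 (95% interval -0.16 to 0.03; limma, BH-adjusted p = 0.595). Without WT replicate 1 the value was -0.10, and without WT replicate 3 it was -0.03 (limma, BH-adjusted p = 0.317 and 0.885). Its partners Neu1 and Glb1, named for their tie to Ctsa outside the naming rule, did not pass the test either (log2 difference -0.10 and 0.02, limma, BH-adjusted p = 0.359 and 0.902). Neu1 was lower in KO without overlap (limma, unadjusted p = 0.0371), whereas Glb1 overlapped between the groups.

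The inhibitor stood on the other side. Cst3 was at 838, 786 and 802 CPM in KO and at 768, 743 and 752 CPM in WT. All KO samples lay above all WT samples, with KO replicate 2 closest to WT replicate 1. The means were 809 ± 26.8 CPM in KO and 754 ± 12.4 CPM in WT (SD, n = 3 each), a log2 difference of 0.10 (SE 0.035, 95% interval 0.02 to 0.18; limma, BH-adjusted p = 0.283). Leaving out single samples gave log2 differences of Cst3 between 0.07 and 0.12 (limma, BH-adjusted p = 0.211 to 0.6). Quantile normalization gave 0.16 for Cst3, with a p still above the threshold (limma, BH-adjusted p = 0.0649).

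Set against the proteases, Cst3 gave a lower balance in every KO sample. The balance was taken in each sample as the mean log2(CPM + 1) of the 9 proteases minus that of Cst3, which compares genes of different length and is of use only between samples. The KO samples had balances of 0.78, 0.89 and 0.85, against 0.94, 1.02 and 1.06 for the WT samples. The KO mean was 0.84 ± 0.0557 and the WT mean 1.01 ± 0.0598 (SD, n = 3 each), a difference of -0.17 on the log2 scale. No p is given, since the members were chosen together. Like the ratios below, the balance follows from the separate values of these genes and is no further evidence. It also counts Ctsd and Ctsa, whose products cystatin C does not inhibit. Leaving out each sample in turn gave differences between -0.20 and -0.14.

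The summed CPM of the proteases did not separate the groups, unlike the balance. The sum was 36952, 37591 and 37061 CPM in KO and 36722, 39420 and 40343 CPM in WT, so WT replicate 1 was below all KO samples. The ratio of that sum to Cst3 was 44.1, 47.8 and 46.2 in KO and 47.8, 53.0 and 53.7 in WT, where KO replicate 2 and WT replicate 1 nearly met. Ctsb and Ctsd made up most of the sum. All papain-like members summed to 22418, 22773 and 22444 CPM in KO and 22601, 23633 and 24302 CPM in WT, with overlap. Only without Ctsb, the most abundant of them, did their sums separate the groups. These were 5688 to 5742 CPM in KO and 6119 to 6672 CPM in WT. Most of that sum came from Ctss, which overlapped between the groups, and Ctsl, which did not. Such sums follow from the separate values of these genes and are no further evidence.

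The pair with the widest relative shift was Ctsl and Ctsc. The ratio of Ctsl to Ctsc, chosen after their values were seen, was 9.04, 8.53 and 9.10 in KO and 10.7, 13.4 and 14.1 in WT. The ratio of Ctsl to Cst3 was 2.14, 2.11 and 2.25 in KO and 2.59, 3.01 and 3.19 in WT. Both ratios were lower in all KO samples than in any WT sample, which follows from the separate values of these genes and is no further evidence.

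**Figure D3:**
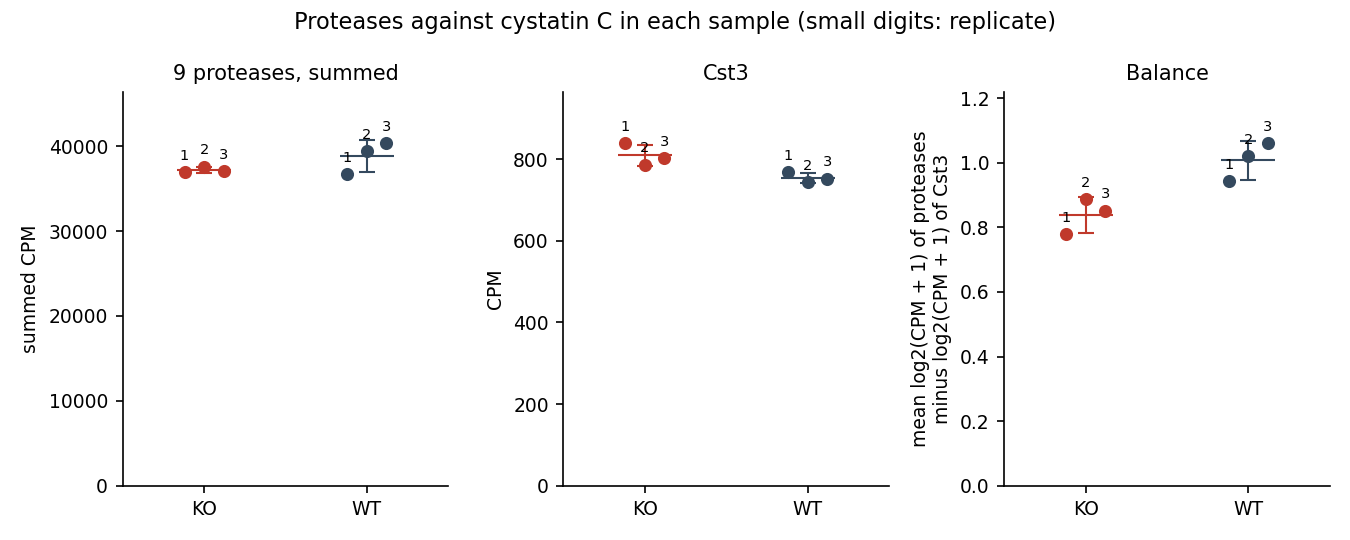
Summed CPM of the 9 proteases (left), CPM of Cst3 (middle) and their balance on the log2 scale (right) in the KO and the WT samples; points are samples with their replicate number, bars are means with SD, and each vertical axis starts at 0. The sums overlap, whereas Cst3 is at 786 to 838 CPM in KO and 743 to 768 CPM in WT, and the balance at 0.78 to 0.89 in KO and 0.94 to 1.06 in WT.

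For most members, the WT samples varied more among themselves than the KO samples. The coefficient of variation was larger in WT for 8 of the 10 members, with Ctss and Cst3 as the exceptions. It reached 9.39% for Ctsl and 7.72% for Ctsd in WT, against 4.68% and 1.02% in KO. Within WT, replicate 3 was the highest for 7 of the 9 proteases. WT replicate 1 was the lowest for 5 proteases (Ctsb, Ctsd, Ctsl, Ctsz and Ctsa) and the highest for Ctsc, Lgmn and Cst3. Within KO, replicate 2 was the highest for 6 proteases and the lowest for Ctsl, Ctsc and Lgmn. Column totals were also higher in WT replicates 2 and 3 (1014741 and 1018258 CPM) than in WT replicate 1 (989657 CPM) and the KO samples (989223 to 992597 CPM). With all columns scaled to the same total, the log2 difference was -0.31 for Ctsl, 0.20 for Ctsc and 0.12 for Cst3, and no member passed the test (limma, BH-adjusted p = 0.0591, 0.129 and 0.224).

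**Figure D4:**
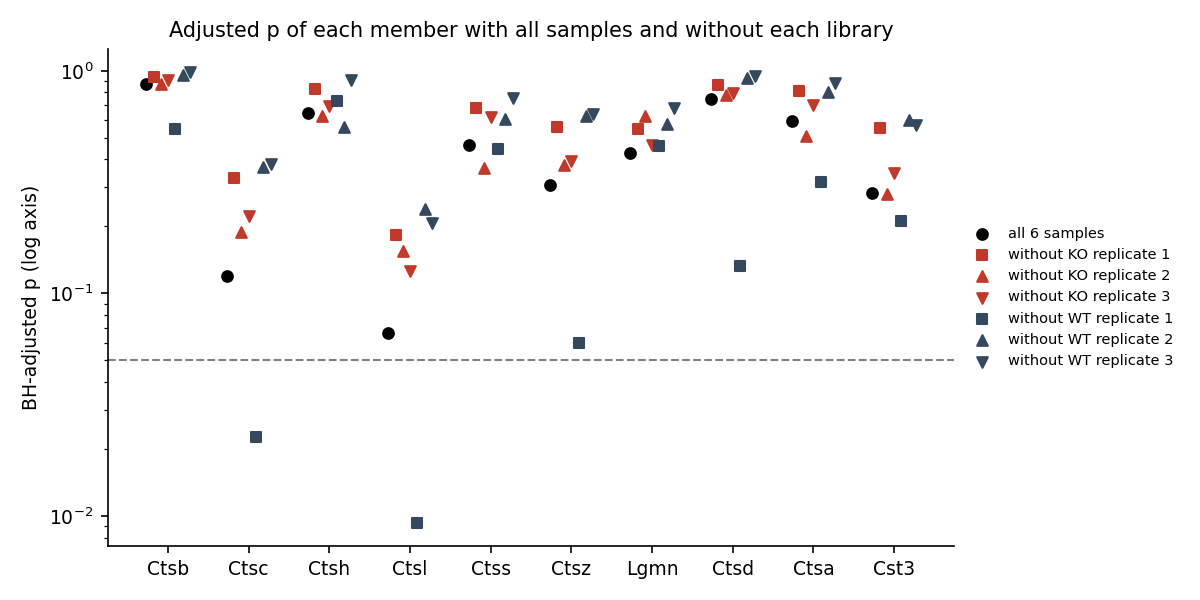
BH-adjusted p from limma (vertical log axis) of each member with all 6 samples (black) and without each KO (red) or WT (dark blue) replicate; the dashed line is the threshold of 0.05. Values under the line occur for Ctsl and Ctsc, both without WT replicate 1.

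Among the related genes outside the members, Ctsk fell, which encodes the collagen-degrading cathepsin K known from osteoclasts. Ctsk was at 7.90, 6.46 and 7.60 CPM in KO and at 10.9, 12.2 and 13.8 CPM in WT, and all KO samples lay below all WT samples. The log2 difference was -0.67 (SE 0.104, limma, BH-adjusted p = 0.0211). The call was lost without KO replicate 1, KO replicate 3, WT replicate 2 and WT replicate 3 (limma, BH-adjusted p = 0.0636, 0.0557, 0.0983 and 0.083). It was also lost when the mean-variance trend was left out of the model (limma, BH-adjusted p = 0.0598). Ctsk was 1 of 5 tested genes in a list of 15 further cathepsins and relatives, whose median log2 difference was -0.03. The others, Ctse, Ctsf, Ctso and Napsa, did not pass the test. Over all tested genes, 0.787% passed it as lower in KO and 0.485% as higher.

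Markers of osteoclasts other than Ctsk also had lower summed values in KO. They summed to 317, 317 and 332 CPM in KO and to 353, 495 and 497 CPM in WT, with WT replicate 1 nearest to the KO samples, as for Ctsl. Of the 5 tested, 0 passed the test and 2 (Mmp9 and Acp5) had an unadjusted p under 0.05, both lower. The log2 difference was negative for 3 of them and positive for Ocstamp (0.18) and Nfatc1 (0.03), which overlapped between the groups. Without Mmp9 the sum was 146, 153 and 152 CPM in KO and 149, 161 and 165 CPM in WT, with overlap. Mmp9, a gelatinase gene, made up most of the sum in WT (172 ± 8.0 CPM in KO and 290 ± 74.5 CPM in WT; limma, BH-adjusted p = 0.106). Dcstamp, needed for the fusion of osteoclast precursors, was at 75.1 ± 2.08 CPM in KO and 83.3 ± 8.45 CPM in WT, with overlap (log2 difference -0.14; limma, BH-adjusted p = 0.453). Acp5, the gene of tartrate-resistant acid phosphatase, was named outside the rule as a common osteoclast marker. It was at 2.59 ± 0.439 CPM in KO and 4.68 ± 1.44 CPM in WT (limma, BH-adjusted p = 0.198). The markers Calcr and Oscar were not among the 13254 listed genes. The part of such cells in the levels of Ctsl and Ctsk was not tested, and in bulk RNA fewer cells of a type cannot be told apart from less RNA per cell.

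Stromal markers also differed. They summed to 15.5, 5.58 and 37.6 CPM in KO and to 61.3, 54.95 and 58.2 CPM in WT. Of the 5 tested, 2 passed the test as lower in KO (Col3a1 and Postn) and all 5 had an unadjusted p under 0.05. Their part in the level of Ctsk or of any member was not tested. Markers of dendritic cells summed to 0.735 to 0.9 CPM in KO and 1.54 to 1.91 CPM in WT, without overlap. Of these markers 0 had enough signal for the test. Kit, named outside the rule, was the only mast cell and basophil marker listed. It was at 0.356 to 0.978 CPM in KO and 1.23 to 2.59 CPM in WT, without overlap (log2 difference -0.82; limma, BH-adjusted p = 0.147). Markers of lymphoid cells summed to 6.25 to 6.81 CPM in KO and 5.66 to 6.48 CPM in WT.

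Further inhibitors did not pass the test. Of a list of 31, 4 could be tested, and 0 passed by limma, although Ctla2a and Ctla2b had an unadjusted p under 0.05, both higher in KO. Cstb, which encodes the intracellular inhibitor stefin B, was at 312 ± 11.7 CPM in KO and 321 ± 5.67 CPM in WT (log2 difference -0.04; limma, BH-adjusted p = 0.709). Ctla2b, whose product resembles the propeptide of a cathepsin, was at 18.9 ± 1.59 CPM in KO and 15.9 ± 1.21 CPM in WT (log2 difference 0.23; limma, BH-adjusted p = 0.274). Cst7, the gene of cystatin F, which is known to restrain cathepsin C, was named outside the rule for that tie. It stood at 3.64 ± 0.705 CPM in KO and 3.63 ± 0.739 CPM in WT (limma, BH-adjusted p = 0.995).

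Of 7 tested peptidases and partner enzymes of the lysosome, 1 passed limma's test, as lower in KO. At an unadjusted p under 0.05 there were 2 (Cpq and Neu1), both lower, against 12.5% of all tested genes. Cpq, which encodes a carboxypeptidase, was at 22.2, 22.9 and 23.8 CPM in KO and at 37.0, 38.4 and 37.8 CPM in WT, far apart compared with the spread within each group. The log2 difference was -0.69 (SE 0.0479; limma, BH-adjusted p = 0.000186), and it passed the test without any single sample (adjusted p at most 0.00285). The median log2 difference of this list was -0.03.

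Genes for sorting to lysosomes or for lysosomal transcription, listed together with Psap and Grn, numbered 15, all tested. Of these, 0 passed the test (limma, 1 higher and 1 lower at an unadjusted p under 0.05). The most abundant were Psap, the precursor of the saposins, at 14284 CPM in KO and 15349 CPM in WT (log2 difference -0.10; limma, BH-adjusted p = 0.534) and Grn, the progranulin gene, at 2065 CPM in KO and 2021 CPM in WT (0.03, adjusted p = 0.756). Igf2r, a receptor that carries enzymes tagged with mannose 6-phosphate to endosomes, was named after its values were seen. It stood at 231, 215 and 272 CPM in KO and at 287, 298 and 313 CPM in WT, without overlap (log2 difference -0.33; limma, BH-adjusted p = 0.115). Without KO replicate 3, the highest KO sample, Igf2r passed the test (log2 difference -0.42; limma, BH-adjusted p = 0.012). The factor genes Tfeb and Tfe3, named for the promoter word, had log2 differences of 0.04 and 0.13 (limma, BH-adjusted p = 0.795 and 0.291). The median log2 difference of this list was 0.02.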

How the data were processed

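RNA was sequenced as paired ends, per the labels' protocols, from 3 KO and 3 WT samples. The authors deposited 1 table of CPM per gene, per the file headers, and genome build GRCm39 is named in the submitters' processing notes. The sources used here do not name the aligner, the counter, the annotation, the use of strand or the method of scaling. The deposited table also holds 1 unlabelled p-value, which was not used, and 0 further sample columns. Between 27.9% and 60.0% of the values under 0.4 CPM matched a whole multiple of the best-fitting step to within 0.1 of it, so whole reads were not recovered and no counting interval is given.

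The 11556 genes that reached 1 CPM in 3 or more samples were tested as log2(CPM + 1), with limma 3.58.1 in R 4.3.3 (mean-variance trend, two-sided, BH over all tested genes, threshold 0.05). Fold changes on this scale understate those of low genes. The model was also run on simulated data with independent noise of the fitted spread. That run cannot show how the model fares if the samples are technical replicates. Members and lists were chosen with earlier results of these data known. Named were all 10 members, Ctsk, and from each other list the genes past the test or the 2 most abundant tested, except that marker lists of dendritic, lymphoid and mast cells are given as sums. Genes named outside this rule are said to be so. Lengths and untranslated regions came from GENCODE M21 on GRCm38, and text handling used Python 3.11.15. Alternatives were pseudocounts, filters, scalings, no trend, a replicate block and leaving out each sample.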

Additional observations from a re-analysis of the deposited data

How the results depend on the processing

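The count of members past the test was 0 in every alternative run except without WT replicate 1, where it was 2 (range without single samples 0 to 2). Of 150 member values under alternatives, 145 kept their direction and their side of the threshold. Under quantile normalization the log2 difference of Ctsb and of Ctsd was 0, since a gene with the same rank in every sample is given equal values. The other exceptions were Ctsl and Ctsc without WT replicate 1 and Ctss under quantile normalization, at a log2 difference of 0.0801 in place of -0.08 (limma, BH-adjusted p = 0.52), where the cause was not tested. Over all genes, 147 passed the test, 74 without the mean-variance trend (38 higher and 36 lower, against 56 and 91), and 52 to 243 without single samples. Of the related genes outside the members, 2 passed the test (Ctsk and Cpq), 1 without the trend, where Ctsk was lost (limma, BH-adjusted p = 0.0598), and 1 to 2 without single samples. Without KO replicate 3 the 2 were Cpq and Igf2r. Equal column totals, an alternative added after seeing the data, gave 142 genes (64 higher and 78 lower). The balance stayed within 1 SD of its value under all alternatives run, from -0.20 to -0.14. The replicate numbers are names, and deviations of samples with the same number correlated at 0.0002, 0.0834 and 0.0646. With a replicate block 142 genes and 0 members passed the test, and the related genes past it were 3, Igf2r being the additional one (limma, BH-adjusted p = 0.0381). Depth in reads is unknown, so no limit from counting can be given.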
